A study of Mus musculus with 12 samples.

Results

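The response of newborn testis germ cells to dexamethasone (dex) was set against the response of the somatic cells of newborn testes. The quantity is a difference of differences on the log2 scale, (dex germ minus saline germ) minus (dex somatic minus saline somatic), called the contrast here, and it used all 12 libraries of the series. A positive contrast means that the germ effect was the higher of the pair, and a negative contrast that the somatic effect was. Of 54532 genes in the count table, 20551 had enough reads to be tested. A gene is called where edgeR's quasi-likelihood test gave a Benjamini-Hochberg adjusted p at or under 0.05, and 170 genes (0.827% of those tested) were called in the contrast.

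All mice carried Tg(Pou5f1-EGFP)2Mnn, a transgene in which regulatory sequence of Pou5f1 (OCT4) drives green fluorescent protein (GFP), and the labels give no other allele. Dams received 10 μg dex per g of body weight by intraperitoneal injection on 2 successive days of late gestation, the second at E18.5, and their pups the same dose under the skin at PN0 (postnatal day 0). Control dams and pups received saline. Testes were taken at PN1 and sorted into GFP+ germ cells and GFP- somatic cells, which gave 4 groups, each of 3 libraries, named here for the treatment and the population. The study's methods state that 1 replicate combines testes of 2 or more litters dosed separately, so the spread between replicates is a spread between pools. The GFP- gate takes every other cell of the testis, so the somatic libraries average over Sertoli, Leydig, peritubular, stromal, vascular and blood cells. In bulk RNA, fewer cells of a type and less RNA per cell cannot be told apart.

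Dex is a synthetic ligand of the glucocorticoid receptor, which is encoded by Nr3c1. The bound receptor enters the nucleus and raises or lowers transcription, mostly from enhancers, and which enhancers it finds open differs between cell types. Its widely shared targets include Tsc22d3, Zbtb16, Klf9, Per1 and Fkbp5. Prospermatogonia, the germ cells of the newborn testis, are arrested in the cell cycle and lie inside cords of Sertoli cells, and they later give rise to spermatogonial stem cells.

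Total counts per library ran from 18459692 to 25178477, so that 3 counts corresponded to 0.119 to 0.163 CPM, the unit of counts scaled to library size that is used below. Germ cell and Sertoli cell markers lay apart by population as the sort implies. The summed level of 10 germ cell markers was 3323 to 3642 CPM in germ libraries and 14.5 to 24.2 CPM in somatic libraries, which is 0.601% of the germ level in saline and 0.492% in dex. Without Piwil2, the most abundant of them in somatic libraries, the figures were 0.2% and 0.0891%. The summed level of 10 Sertoli cell markers was 4594 to 5180 CPM in somatic libraries, and germ libraries held 1.47% of it in saline and 1.13% in dex.

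The called genes split evenly, with 85 higher (0.414%) and 85 lower (0.414%), and 103 of the 170 differed by at least 1 on the log2 scale. They were sorted by what each population did on its own in the same fit. Dex against saline was called for 142 genes in germ cells (0.691%, with 76 or 0.37% up and 66 or 0.321% down) and for 541 genes in somatic cells (2.63%, with 283 or 1.38% up and 258 or 1.26% down). Among the 170 genes, 20 rose and 20 fell in germ cells with no call in somatic cells, and 54 rose and 52 fell in somatic cells with no call in germ cells. Such genes are named germ-restricted and somatic-restricted below, and the name says that the difference between populations was itself called, not that the other population was still. A single gene, Ralgapa1, was called in both populations with opposite signs, no gene was called in both with the same sign, and 23 were called in neither. The 2 effects had opposite signs in 137 of the 170, a share that the choice of genes favours, since a wide gap is easiest to reach from opposite sides.

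**Figure D1:**
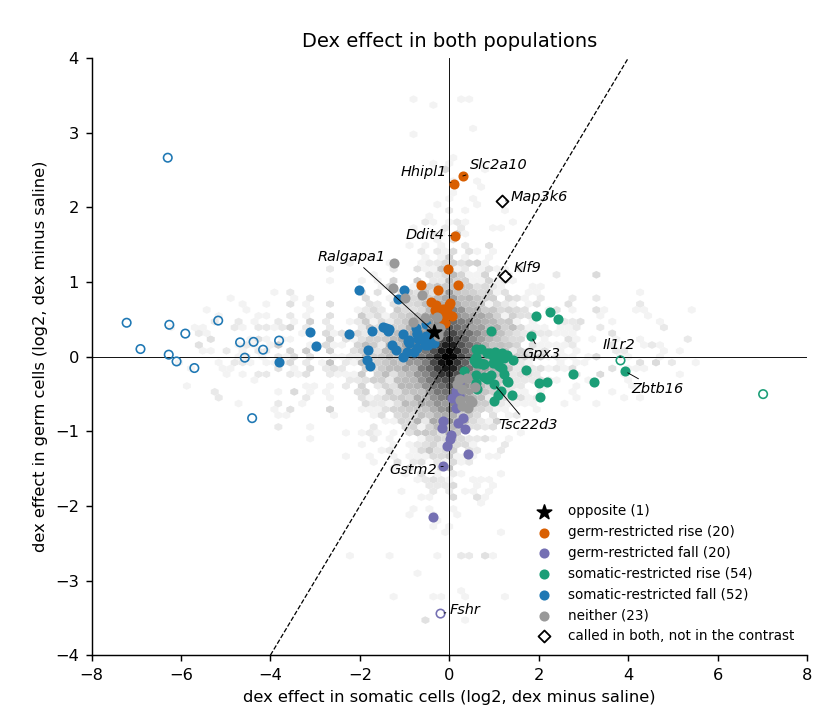
Dex effect in germ cells (vertical axis, log2 of dex minus saline) against the dex effect in somatic cells (horizontal axis, log2), with grey hexagons for the number of tested genes and coloured points for the 170 genes called in the contrast, by response class. Open circles mark genes with a group of libraries at or under 3 counts, open diamonds mark Klf9 and Map3k6, which were called in both populations and not in the contrast, the dashed line marks equal effects, and the coloured points lie off that line, on either side of it.

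A call in one population without a call in the other was a weak guide to a difference. Of 124 genes called only in germ cells 40 were called in the contrast and 84 were not, and of 523 called only in somatic cells 106 were called and 417 were not. The counts also depend on the settings, from 57 genes with limma-trend on FPKM to 706 with no filter on low counts, and scaling by library totals gave 148 higher and 73 lower (67% higher, against 50% here). Yet 29 of the 170 were called under all 8 other settings and with any 1 library left out, and all 170 kept the sign of the contrast in each of those fits that tested them. These 29 were Ralgapa1, 6 germ-restricted rises, 1 germ-restricted fall, 18 somatic-restricted rises and 3 somatic-restricted falls.

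Ralgapa1, which encodes the catalytic subunit of a GTPase-activating complex for Ral proteins, moved in opposite directions. Its level in germ cells was 192, 178 and 175 CPM with dex and 148, 140 and 144 CPM with saline. In somatic cells it was 61.4, 58.9 and 59.5 CPM with dex and 78.5, 74.2 and 74.6 CPM with saline. The groups do not overlap in either population. The germ effect was 0.33 (adjusted p = 0.0449), the somatic effect -0.34 (adjusted p = 0.022) and the contrast 0.67 (SE 0.10, adjusted p = 0.00721). The gene spans chr12:55602896-55821167 on the minus strand of mm10 (GRCm38), and its saline level was 11.9 FPKM in germ cells and 5.76 FPKM in somatic cells. With each population fitted on its own 6 libraries its somatic effect was no longer called (adjusted p = 0.085). Nor did the pair of calls withstand leaving out libraries: the contrast of Ralgapa1 was called in all 12 such fits (adjusted p up to 0.024), but it was called in both populations in 1 of them, the fit without saline somatic replicate 2. Tsc22d3 and Lama3 were the 2 genes of opposite sign when each population was fitted alone, so which gene bears that label depends on the fit.

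Tsc22d3 encodes GILZ, a leucine zipper protein that is among the best known glucocorticoid targets. Germ cells held 159, 150 and 167 CPM with dex and 205, 213 and 195 CPM with saline. Somatic cells held 81.3, 85.6 and 77.1 CPM with dex and 38.3, 37.6 and 45.9 CPM with saline. Every dex library was below every saline library in germ cells and above every saline library in somatic cells. The contrast was -1.37 (SE 0.13, adjusted p = 3.2e-05), from a somatic rise of 1.00 (adjusted p = 1.57e-05) and a germ effect of -0.37 (adjusted p = 0.0645 over 12 libraries and 0.0225 over the 6 germ libraries). The saline gap of 2.33 between germ and somatic cells narrowed to 0.96 with dex. Lama3, a laminin chain of basement membranes, did the reverse, with 105, 111 and 98.1 CPM in dex germ libraries against 83.1, 70.4 and 79 CPM in saline, and 40.4, 40.9 and 36.1 CPM in dex somatic libraries against 56.5, 62.2 and 50.1 CPM (contrast 0.96, SE 0.14, adjusted p = 0.0063). The germ effect of Lama3 was 0.44 (adjusted p = 0.0621 over 12 libraries, 0.0287 over 6).

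Against this background 17 genes were called in both populations with the same sign, and none of them was called in the contrast. Klf9, a Krüppel-like repressor and a general receptor target, was 37, 44.7 and 33 CPM in dex germ libraries against 18, 15.9 and 20.3 CPM in saline. In somatic cells it was 17.45, 15.7 and 13.9 CPM against 4.62, 6.5 and 8.8 CPM. The 2 effects, 1.08 and 1.24, differed by -0.15 with an SE of 0.28 (adjusted p = 0.907), and the sign of that difference turned without saline somatic replicate 1 (0.03). Map3k6, a stress kinase, went from 14.2, 12.8 and 17.7 CPM to 52.7, 78.2 and 58.4 CPM in germ cells and from 5.53, 5.89 and 5.54 CPM to 14.1, 13.2 and 11.3 CPM in somatic cells (effects 2.08 and 1.18, contrast 0.90, adjusted p = 0.0918). Pik3r1, a regulatory subunit of phosphoinositide 3-kinase, rose by 0.60 and 0.55, and Fgfr1, a fibroblast growth factor receptor, by 0.45 and 0.29. Sfrp2, a secreted antagonist of Wnt signals, fell in both (-1.36 in germ cells and -1.197 in somatic cells).

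Somatic-restricted rises formed the largest class, with 54 genes, a median somatic effect of 1.07 and a median germ effect of -0.09. Of the 54, 51 reached 1 FPKM in at least 1 saline germ library, and 15 had an unadjusted p under 0.05 for the germ effect by edgeR. The power to call a rise in germ cells was not measured, so a missing germ call does not show that germ cells did not respond. Zbtb16 (chr9:48654297-48836222, minus strand), which encodes PLZF, a zinc finger repressor needed by spermatogonial stem cells and also a receptor target in many tissues, rose from near absence in somatic cells. Somatic libraries held 20.1, 23.2 and 12.8 CPM with dex and 0.558, 2.24 and 0.778 CPM with saline, a 15.1-fold rise. Germ libraries held 292, 313 and 294 CPM with dex and 314, 366 and 346 CPM with saline, a germ effect of -0.19 that did not pass the test (adjusted p = 0.814). The contrast was -4.11 (SE 0.35, adjusted p = 1.47e-05), and the germ to somatic gap narrowed from 8.11 in saline to 4.0 with dex. Even so, dex somatic cells held far less Zbtb16 than any germ library.

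Gpx3, a secreted glutathione peroxidase, had the lowest adjusted p of all genes tested. Its somatic level was 253, 269 and 244 CPM with dex against 73.3, 72.9 and 69.4 CPM with saline, a 3.55-fold rise. The germ level was 41.6, 42.7 and 41.4 CPM against 33.3, 33.3 and 37.1 CPM, and although these libraries do not overlap the germ effect of 0.28 was not called (adjusted p = 0.14). The contrast was -1.55 (SE 0.11, adjusted p = 2.76e-06). Genes here that the naming rule did not select, Gpx3 among them, were chosen after their values were seen.

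Ppp1r3c, a glycogen-targeting subunit of protein phosphatase 1, started lower in somatic than in germ cells and ended level with them. Its somatic level went from 2.23, 3.6 and 2.43 CPM to 14.2, 15.1 and 15.7 CPM, and its germ level from 9.51, 10.1 and 9.11 CPM to 14, 12.1 and 14.8 CPM. The somatic rise of 2.43 exceeded the germ effect of 0.51 (adjusted p of the germ effect 0.273) by 1.92 (SE 0.28, adjusted p = 0.0043). Il1r2, a decoy receptor for interleukin-1, rose from 0.102, 0.132 and 0.0973 CPM to 1.36, 2.18 and 1.41 CPM in somatic cells, which is at least 11.5-fold since saline somatic libraries lay at or under 3 counts, and stood at 8.77 to 13.5 CPM in the 6 germ libraries. Tmem82, a membrane protein gene, went from 2.08, 0.747 and 2.09 CPM to 11.5, 11.7 and 10.3 CPM in somatic cells and lay between 0.954 and 1.72 CPM in germ cells (contrast -3.00, adjusted p = 0.0126). An overlapping gene, AI507597, covers 23.7% of the exonic bases of Tmem82, so reads of the pair may have been mixed.

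Cebpd, a C/EBP transcription factor of acute-phase and fat cell programmes, rose from 50.1, 24.4 and 61.9 CPM to 213, 187 and 146 CPM in somatic cells and lay between 2.35 and 5.16 CPM in germ cells (contrast -2.36, adjusted p = 0.0126), with 15% of its exonic bases shared with Spidr. Errfi1, a feedback inhibitor of the EGF receptor, had nearly equal levels in both saline populations (23.4 and 23.1 FPKM), rose 2.17-fold in somatic cells, and had a germ effect of -0.12 (contrast -1.24, adjusted p = 0.0043). Mt1, a metallothionein that binds zinc and copper, rose 2.7-fold in somatic cells, to 42.9 to 58.2 CPM, and stayed between 78.5 and 111 CPM over the 6 germ libraries (contrast -1.48, adjusted p = 0.011). Hif3a, a hypoxia-inducible factor subunit, rose 2.27-fold in somatic cells with a germ effect under 0.01 in size (contrast -1.18, adjusted p = 0.0128). Per1, a clock repressor, rose by 0.71 in somatic cells against 0.11 in germ cells (contrast -0.60, adjusted p = 0.0282). Rassf4, a Ras association domain protein, rose by 1.41 against -0.51 (contrast -1.92, adjusted p = 0.0282).

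Surface and signalling genes were among those called in every fit. Ncam1, a neural cell adhesion molecule, rose 2.01-fold in somatic cells, from 44.6, 42.9 and 45.5 CPM to 91.5, 89.6 and 85.6 CPM, and went from 13.1, 17.9 and 13.6 CPM to 10.9, 9.96 and 8.52 CPM in germ cells (contrast -1.60, SE 0.18, adjusted p = 0.000565). Rasgrp2, an activator of Rap proteins, was 69.3, 80.9 and 74.1 CPM in dex somatic libraries against 27.5, 31.2 and 33 CPM in saline (contrast -1.61, adjusted p = 0.000718). Camk2n1, an inhibitor of calcium/calmodulin-dependent kinase II, rose 2.11-fold in somatic cells (contrast -1.17, adjusted p = 0.0104). Zfp36l1, an RNA-binding protein that speeds decay of AU-rich transcripts, also kept its call (contrast -0.95, adjusted p = 0.00106), but 55.9% of its exonic bases are shared with Gm26669. Imprinted genes of fetal growth stood in the class as well. H19, a noncoding RNA, rose from 1687, 1970 and 2089 CPM to 4638, 4868 and 3932 CPM in somatic cells (contrast -1.24, adjusted p = 0.00527) and lay between 118 and 168 CPM in germ cells.

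Single libraries decided some of these calls. Cebpd was not called without dex germ replicate 1 or saline germ replicate 2 (adjusted p up to 0.0546). Rassf4 was lost without saline germ replicate 1 or 3, dex somatic replicate 3 or saline somatic replicate 1 or 3 (up to 0.0677). Per1 kept its call in 3 of the 12 fits, those without dex germ replicate 2, saline germ replicate 2 or saline somatic replicate 1, and reached 0.0753 in the others. Zbtb16, Gpx3, Tsc22d3, Ncam1, Rasgrp2, Zfp36l1, Errfi1, Ppp1r3c, H19, Camk2n1, Hif3a, Mt1, Il1r2, Tmem82 and Lama3 were called in all 12.

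Germ-restricted rises numbered 20, with a median germ effect of 0.69 and a median somatic effect of -0.08. For all 20 the dex germ libraries lay above the saline germ libraries, which a call in germ cells favours. Of all 20551 tested genes, 3895 had no overlap between dex and saline germ libraries, in either direction. Several are known stress and growth-control genes. Hhipl1 (chr12:108306270-108330869, plus strand), a relative of the hedgehog-interacting protein, rose from 2.15, 2.97 and 1.29 CPM to 10.6, 11.2 and 10.1 CPM in germ cells, a 4.98-fold rise. It was 6.74, 7.2 and 8.27 CPM in dex somatic libraries and 6.14, 7.74 and 6.66 CPM in saline, so dex germ cells passed the somatic level (contrast 2.20, SE 0.36, adjusted p = 0.00952). Slc2a10, the glucose transporter GLUT10, rose 5.36-fold in germ cells, from 0.614, 0.991 and 0.954 CPM to 4.29, 4.52 and 4.89 CPM, and lay between 8.31 and 13 CPM in somatic cells (contrast 2.12, adjusted p = 0.00998).

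Ddit4, which encodes REDD1, an inhibitor of mTOR complex 1 induced by stress and glucocorticoids, rose in germ cells from 29, 32.3 and 48.9 CPM to 89, 141 and 109 CPM. In somatic cells it was 163, 116 and 140 CPM with dex and 110, 158 and 116 CPM with saline, which overlap. The contrast was 1.49 (SE 0.27, adjusted p = 0.0152), and the saline gap of -1.80 between germ and somatic cells was -0.31 in dex libraries. Ddit4 was the single glucocorticoid response gene called in this direction. Nuak1, an AMPK-related kinase, rose 2.25-fold in germ cells, from 11.1, 13.1 and 12.3 CPM to 20.7, 31.9 and 29.7 CPM, and averaged 78.1 CPM in dex and 80.2 CPM in saline somatic libraries (contrast 1.21, adjusted p = 0.0149). Ddit4 was not called without saline germ replicate 1 or 2, nor Nuak1 without saline germ replicate 1 (adjusted p up to 0.0568 for each).

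Mtr, the vitamin B12-dependent methionine synthase, and Enc1, an actin-binding protein, were called in every fit. Mtr was 588, 533 and 597 CPM in dex germ libraries against 368, 386 and 356 CPM in saline, and 80.6, 76.5 and 93 CPM against 102, 108 and 100 CPM in somatic libraries. Its groups do not overlap in either population, but the somatic effect of -0.31 was not called (adjusted p = 0.0561) beside a germ rise of 0.63 (contrast 0.94, SE 0.12, adjusted p = 0.000898). Enc1 had a germ rise of 0.70 and a somatic effect of -0.29 (adjusted p = 0.0905), with a contrast of 0.99 (SE 0.12, adjusted p = 0.000898). Atoh8, a basic helix-loop-helix factor, rose from 32.7, 41.7 and 42.1 CPM to 62.6, 62.7 and 68.6 CPM in germ cells, and had a somatic effect of -0.41 (contrast 1.15, adjusted p = 0.00721). Adcy6, an adenylate cyclase, rose 1.94-fold in germ cells (contrast 0.77, adjusted p = 0.0149). Hr, a nuclear receptor corepressor, rose 1.86-fold (contrast 1.15, adjusted p = 0.0392), and it was called in 2 of the 12 fits that left out a library, those without dex germ replicate 1 or saline somatic replicate 3 (adjusted p up to 0.099).

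The receptor binds DNA as a dimer at paired half-sites, and the core of such a site was searched as ACANNNTGT, which reads the same on both strands, in the 300 bases from 250 before to 50 after each RefSeq gene start (GRCm38.p6). Of the 170 genes 119 had a window. The core was found near 1 of 15 germ-restricted rises (6.67%), 2 of 15 germ-restricted falls (13.3%), 1 of 33 somatic-restricted rises (3.03%) and 4 of 38 somatic-restricted falls (10.5%), beside 5.68% of all 13546 tested genes with a window. The half-site AGAACA, read on either strand, was near 2, 3, 4 and 4 of these genes, beside 15.8% of the tested genes. The 2 rises with a core match are printed with Map3k6, which rose in both populations, and capitals mark the core. A match describes letters and not binding.
Slc2a10, chr2:165503647-165503946, plus strand: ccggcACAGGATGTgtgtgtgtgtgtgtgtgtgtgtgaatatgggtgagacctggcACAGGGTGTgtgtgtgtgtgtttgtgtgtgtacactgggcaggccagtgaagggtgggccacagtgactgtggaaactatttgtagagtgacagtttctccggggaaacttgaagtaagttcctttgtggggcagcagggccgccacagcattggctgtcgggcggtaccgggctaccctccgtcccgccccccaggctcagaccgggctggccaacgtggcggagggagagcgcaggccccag
Mt1, chr8:94178839-94179138, plus strand: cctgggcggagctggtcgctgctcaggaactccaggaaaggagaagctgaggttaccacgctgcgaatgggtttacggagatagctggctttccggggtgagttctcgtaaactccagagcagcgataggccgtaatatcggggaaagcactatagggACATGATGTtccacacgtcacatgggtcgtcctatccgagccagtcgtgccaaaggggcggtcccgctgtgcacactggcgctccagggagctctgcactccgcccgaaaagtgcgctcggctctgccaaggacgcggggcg
Map3k6, chr4:133240568-133240867, plus strand: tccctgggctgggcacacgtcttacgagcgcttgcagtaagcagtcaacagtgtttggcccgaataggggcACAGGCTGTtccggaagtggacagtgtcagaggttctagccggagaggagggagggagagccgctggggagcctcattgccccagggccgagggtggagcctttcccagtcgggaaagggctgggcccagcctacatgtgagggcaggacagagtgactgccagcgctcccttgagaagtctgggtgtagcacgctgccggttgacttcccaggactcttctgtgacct
Both matches of Slc2a10 adjoin a run of tg repeats.

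**Figure D2:**
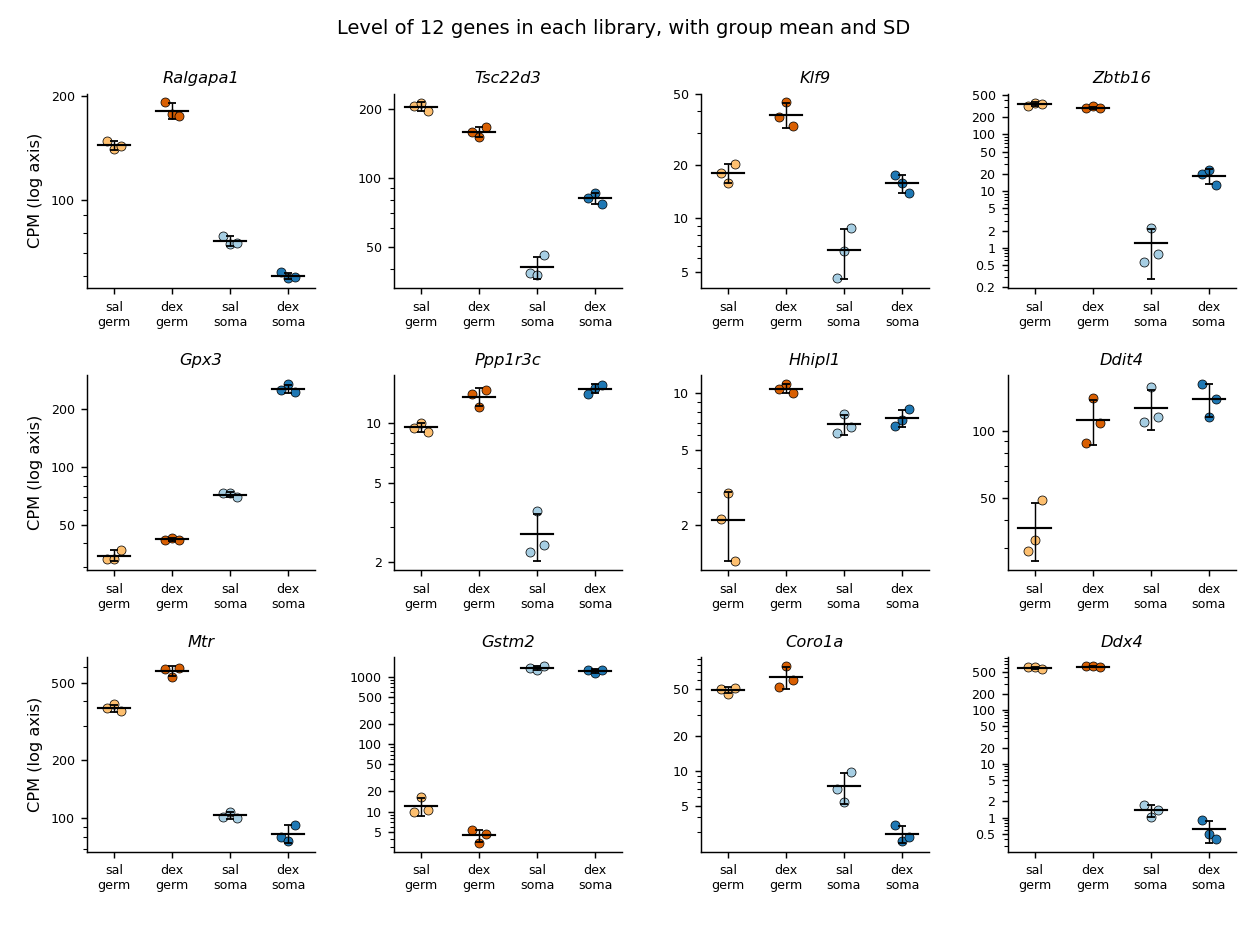
Level of 12 genes in each of the 12 libraries, in CPM on a log axis, by group (sal, saline), with the group mean as a bar and the SD as an error bar. Ralgapa1 and Tsc22d3 part in opposite directions, Klf9 rises in both populations, Zbtb16, Gpx3 and Ppp1r3c rise in somatic cells, Hhipl1, Ddit4 and Mtr rise in germ cells, Gstm2 falls in germ cells, and Coro1a and Ddx4 fall in somatic cells.

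Germ-restricted falls also numbered 20, with a median germ effect of -0.87 and a median somatic effect of 0.16. Genes of somatic cells made up most of them. In saline 17 of the 20 were called and at least 1 log2 unit higher in somatic cells, and 11 had a germ level under 10% of the somatic level, 6 of these under 2%. Gstm2, a glutathione transferase, was 5.26, 3.44 and 4.66 CPM in dex germ libraries against 9.73, 16.5 and 10.6 CPM in saline, beside 1114 to 1425 CPM in somatic libraries (germ effect -1.47, contrast -1.33, adjusted p = 0.0104). S100a11, a calcium-binding protein, was 0.646, 0.925 and 1.63 CPM against 2.45, 2.61 and 2.81 CPM in germ cells and 299, 342 and 304 CPM against 254, 210 and 247 CPM in somatic cells (contrast -1.72, adjusted p = 0.00648), though 39.3% of its 64-base stretches also lie in other genes, mainly Gm12854. Fshr, the follicle-stimulating hormone receptor of Sertoli cells, was 0, 0 and 0.14 CPM in dex germ libraries and 0.57, 0.626 and 0.381 CPM in saline, at least 4.06-fold lower against a floor of 3 counts per library, beside 36.3 to 51.7 CPM in somatic libraries.

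Efemp2, a protein of elastic fibres, was 42.7, 40.5 and 40.2 CPM with dex against 54.4, 58.6 and 62 CPM with saline in germ cells, and 188, 205 and 191 CPM against 178, 163 and 165 CPM in somatic cells (contrast -0.71, SE 0.11, adjusted p = 0.00721). It was the one germ-restricted fall called in every fit. Sparc, a matrix glycoprotein, fell by 0.46 in germ cells to 18.8 to 20 CPM, beside 2748 to 3307 CPM in somatic cells (contrast -0.61, adjusted p = 0.0149). Nrbp2, a pseudokinase, fell to 12, 14.6 and 9.32 CPM from 19.9, 25.1 and 29.6 CPM (contrast -1.07, adjusted p = 0.0237). Timp1, an inhibitor of matrix metalloproteinases, fell to 2.72, 3.63 and 2.52 CPM from 6.49, 4.54 and 6.39 CPM (contrast -1.32, adjusted p = 0.0248). Gadd45b, a stress-response gene that glucocorticoids raise in some tissues, fell by 0.83 in germ cells beside a somatic effect of 0.31 (contrast -1.14, adjusted p = 0.0222). Rasl11a, a small GTPase, fell by 0.89 (contrast -1.08, adjusted p = 0.0462), and Fbn2, a fibrillin, by 0.51 (contrast -0.73, adjusted p = 0.0392).

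Efemp2, Sparc, Gstm2 and S100a11 kept their calls in all 12 fits that left out a library. Nrbp2 and Gadd45b were lost without dex germ replicate 1 or 3, saline germ replicate 2 or 3 or dex somatic replicate 3 (adjusted p up to 0.0735 and 0.0782), and Timp1 without dex germ replicate 1 or 3, saline germ replicate 1 or 3, dex somatic replicate 3 or saline somatic replicate 3 (up to 0.0753). Rasl11a was called only without dex germ replicate 3 (up to 0.107 otherwise). Fbn2 was lost without dex germ replicate 2 or 3, saline germ replicate 1 or 2, dex somatic replicate 2 or saline somatic replicate 3 (up to 0.0939), and Fshr was called only without dex germ replicate 3, saline germ replicate 3 or dex somatic replicate 1 or 3 (up to 0.12 otherwise).

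Sertoli and Leydig cell markers in the germ libraries moved the same way as these genes, and stromal and peritubular markers did not. Summed Sertoli cell markers were 48.8 to 59.3 CPM in dex germ libraries and 66 to 77.4 CPM in saline, a log2 change of -0.38, with none of the 10 at 0 in either group. Leydig cell markers were 9.22 to 12.5 CPM and 14.6 to 17.2 CPM, a change of -0.585, with 1 of 8 at 0 throughout. Neither pair of groups overlapped without the most abundant marker of its list, Clu (29.9 to 38.7 and 41.8 to 46.2 CPM) or Star (4.92 to 7.39 and 7.46 to 10.5 CPM), an alternative chosen after seeing the data. Stromal markers overlapped, at 120 to 129 CPM with dex and 107 to 156 CPM with saline, and peritubular markers were higher with dex, at 33.5 to 36.1 CPM against 25.2 to 30.1 CPM. The part of such RNA in the germ falls was not tested.

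**Figure D3:**
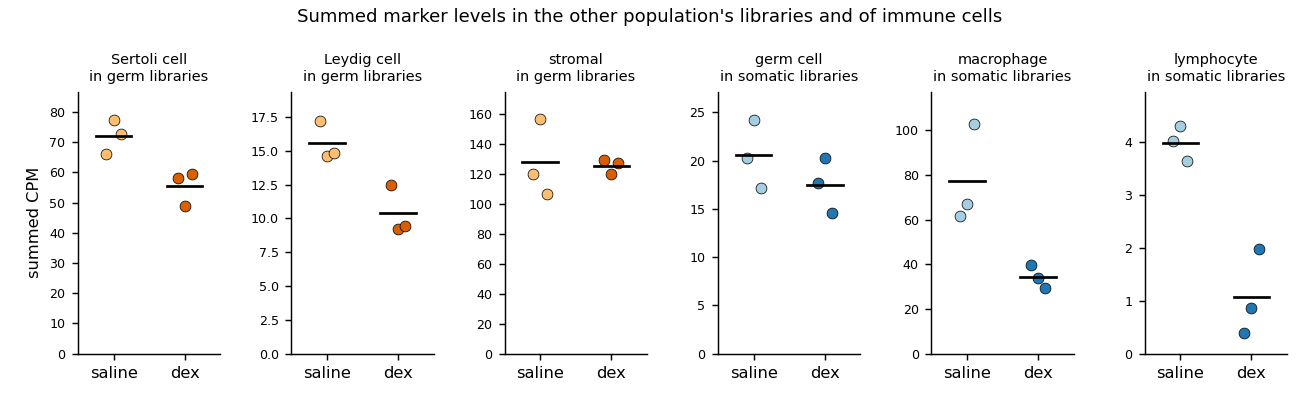
Summed CPM of marker genes in each library, saline against dex, for Sertoli, Leydig and stromal markers in germ libraries and for germ cell, macrophage and lymphocyte markers in somatic libraries, with the group mean as a bar and each vertical axis starting at 0. Sertoli and Leydig sums in germ libraries and macrophage and lymphocyte sums in somatic libraries do not overlap between dex and saline, and the stromal and germ cell sums do, the latter with Piwil2 as its most abundant gene.

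Somatic-restricted falls numbered 52, with a median somatic effect of -1.40 as fitted and -1.24 with the genes at their bound, since 15 of them lay at or under 3 counts in all dex somatic libraries. Their median germ effect was 0.21. They were mostly genes of higher germ level: 37 of 52 (71.2%) were germ-enriched in saline, beside 28.3% of all tested genes. In every saline somatic library 29 were under 1 FPKM. The filter on low counts needed reads in 1 group only, so a gene this scarce could be tested through its germ reads. The germ-enriched share may be set in part by that filter, and it rests on saline libraries that also enter the contrast. Afap1l1, an actin filament-associated adaptor, was 1.93, 1.47 and 1.56 CPM in dex somatic libraries against 4.42, 4.18 and 4.18 CPM in saline, and 65, 72 and 71.6 CPM against 59.9, 51.5 and 52.5 CPM in germ libraries (contrast 1.71, SE 0.20, adjusted p = 0.000565). Sema4d, a semaphorin, was called in every fit, with 20.3, 22.4 and 17.7 CPM against 27.8, 31.1 and 27.5 CPM in somatic cells and 305, 307 and 297 CPM against 237, 257 and 254 CPM in germ cells (contrast 0.80, adjusted p = 0.00721). The germ effect of Sema4d, 0.28, was not called (adjusted p = 0.156).

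Coro1a, an actin regulator of leukocytes, fell in somatic cells from 7.01, 5.41 and 9.78 CPM to 3.46, 2.54 and 2.72 CPM and was far higher in germ cells, at 45.5 to 78.6 CPM (contrast 1.72, adjusted p = 0.00995). Fmnl1, a formin of blood cells, fell from 4.06, 2.86 and 4.62 CPM to 2.1, 1.12 and 1.11 CPM beside 46.4 to 73.3 CPM in germ cells (contrast 1.81, adjusted p = 0.00892). Zap70, a kinase of the T cell receptor, went from 0.66, 0.308 and 0.389 CPM to 0 in all 3 dex somatic libraries, at least 2.87-fold lower, and was 4.16 to 7.63 CPM in germ cells. Mrc1, the mannose receptor of tissue macrophages, fell from 9.09, 10.7 and 14.4 CPM to 7.31, 4.72 and 4.99 CPM in somatic cells. In germ cells it was 10.1, 11.3 and 12.9 CPM with dex and 5.87, 7.82 and 4.72 CPM with saline, without overlap but not called (adjusted p = 0.121), so the contrast was 1.91 (SE 0.35, adjusted p = 0.0149). Pecam1, an adhesion molecule of endothelium and leukocytes, fell by 0.73 in somatic cells (contrast 1.05, adjusted p = 0.0496).

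Macrophage and lymphocyte markers moved with these genes in somatic libraries. The 10 macrophage markers summed to 29.5 to 39.9 CPM with dex and 61.7 to 103 CPM with saline, with none at 0. The 8 lymphocyte markers summed to 0.397 to 1.97 CPM and 3.65 to 4.31 CPM, with 3 of 8 at 0 in all dex somatic libraries and none in saline. Germ libraries held more of the lymphocyte sum, 6.15 to 11 CPM with dex and 7.67 to 8.34 CPM with saline. Cd79a alone was 2.75 to 8.4 CPM and 4.43 to 6.63 CPM there, so this list did not mark lymphocytes alone. In germ libraries the macrophage sum was higher with dex, at 16.8 to 19.5 CPM against 11.5 to 14.5 CPM, but the 9 markers other than Mrc1 overlapped, at 6.61 to 7.37 CPM and 5.66 to 8.82 CPM. The 8 erythroid markers overlapped in somatic libraries, at 85.3 to 299 CPM with dex and 256 to 394 CPM with saline, with 3 at 0 in all dex somatic libraries and 1 in saline. Without Hba-a1, the most abundant, they did not overlap, at 21.3 to 74.2 CPM and 86.7 to 119 CPM. Endothelial markers likewise overlapped as a sum, at 257 to 332 CPM with dex and 265 to 296 CPM with saline, through Cdh5, which alone was 219 to 303 CPM and 198 to 241 CPM. The other 7 were 28.9 to 49.8 CPM with dex and 53.6 to 67.2 CPM with saline, with Pecam1 itself still among them. Pecam1 and Tek did not overlap and were called lower in somatic cells. Kdr, Emcn, Esam, Egfl7 and Cldn5 each overlapped. The sum without Cdh5 is therefore not separate from the fall of Pecam1. The part of blood and endothelial cell RNA in the falls of Coro1a, Fmnl1, Zap70, Mrc1 and Pecam1 was not tested.

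Ddx4, the germ cell helicase VASA and the one germ cell marker called in somatic cells, fell there. It was 0.907, 0.507 and 0.404 CPM in dex somatic libraries and 1.73, 1.01 and 1.41 CPM in saline, against 568 to 643 CPM in germ libraries (contrast 1.28, adjusted p = 0.0462). The summed germ cell markers in somatic libraries overlapped, at 14.5 to 20.2 CPM with dex and 17.2 to 24.2 CPM with saline, with 1 of 10 at 0 in both. Most of that sum was Piwil2, at 12.2 to 18 CPM and 11.9 to 17.8 CPM. The other 9, Ddx4 among them, did not overlap, at 2.28 to 3.06 CPM with dex and 4.87 to 6.42 CPM with saline. Their sum was thus lower in dex somatic libraries beside the 37 germ-enriched falls. In saline 33 of those 37 had a somatic level of at least 2% of the germ level, and 4 of all 52 falls lay under 2%. The part of germ cell RNA in these falls was not tested.

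Among the other named falls, Bmper, an extracellular modulator of bone morphogenetic proteins, was 5.44, 6.6 and 6.46 CPM in dex somatic libraries and 14.1, 13.8 and 13.3 CPM in saline, with germ levels of 1.01 to 2.1 CPM (contrast 1.92, adjusted p = 0.0134). Slc4a8, a sodium-driven bicarbonate exchanger, fell by 1.04 (contrast 1.35, adjusted p = 0.0253), B4galnt4, a glycosyltransferase, by 0.75 (contrast 1.13, adjusted p = 0.0298), and Nr1d2, the clock repressor REV-ERB beta, by 0.73 beside a germ effect of 0.12 (contrast 0.85, adjusted p = 0.0303). Afap1l1, Sema4d, Coro1a, Fmnl1 and Zap70 kept their calls in all 12 fits that left out a library. Bmper and Mrc1 lost theirs without saline germ replicate 1 (adjusted p up to 0.0514 and 0.055). Slc4a8 was lost without dex germ replicate 3, saline germ replicate 1 or 3, dex somatic replicate 2 or 3 or saline somatic replicate 3 (up to 0.0675), and Nr1d2 without dex germ replicate 1 or 3, saline germ replicate 1 or 3, dex somatic replicate 2 or saline somatic replicate 3 (up to 0.0832). B4galnt4 was called only without dex germ replicate 2, saline germ replicate 2, dex somatic replicate 1 or saline somatic replicate 1 (up to 0.0723 otherwise), Ddx4 only without dex somatic replicate 1 or saline somatic replicate 2 (up to 0.136) and Pecam1 only without dex somatic replicate 3 or saline somatic replicate 2 (up to 0.145).

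Baseline levels differed between the classes. A gene was called germ-enriched or soma-enriched where the saline libraries of the populations differed with a call and by at least 1 on the log2 scale, which held for 28.3% and 24.7% of all tested genes. Germ-restricted rises were soma-enriched in 12 of 20 and germ-enriched in 3, and germ-restricted falls in 17 and 1 of 20. Somatic-restricted rises were spread, with 17 soma-enriched, 19 germ-enriched and 18 comparable. Somatic-restricted falls leaned the other way, with 5 soma-enriched and 37 germ-enriched. So 29 of the 40 germ-restricted genes had a higher somatic level and 56 of the 106 somatic-restricted genes a higher germ level at baseline. A gene scarce in one population could pass the filter on low counts through the other, so these shares may be set in part by the filter. The saline libraries that give the baseline also enter the contrast and the classes. The shares are therefore a description and not a result independent of the class.

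The median saline difference, germ minus somatic, was -1.41 for germ-restricted rises, -3.39 for germ-restricted falls, -0.44 for somatic-restricted rises and 2.56 for somatic-restricted falls, beside 0.12 for all tested genes. The gap in dex libraries was -0.41, -4.64, -1.37 and 4.49. By these medians rises in germ cells brought the populations closer, while falls in either population and rises in somatic cells set them further apart. Single genes that rose in somatic cells, such as Zbtb16 and Tsc22d3, narrowed the gap instead. The dex gap is the saline gap plus the contrast, by which the genes were chosen and classed. Which way each gap moved therefore follows from the class and is not a separate result. Genes under 1 FPKM in every saline library of a population were few among the germ-restricted genes (3 rises and 2 falls in germ cells), and 12 of 54 somatic-restricted rises were that low in somatic cells.

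**Figure D4:**
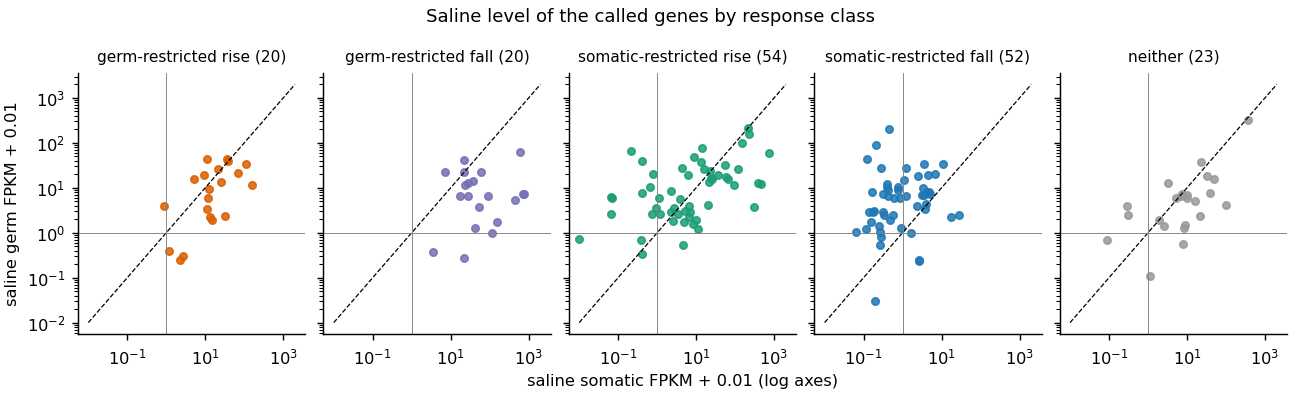
Mean FPKM in saline germ cells (vertical axis) against saline somatic cells (horizontal axis) for the called genes of 5 response classes, on log axes with 0.01 added. Dashed lines mark equal levels and grey lines 1 FPKM, and germ-restricted falls lie mostly below the dashed line while somatic-restricted falls lie mostly above it and often left of 1 FPKM.

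Gene lists drawn up from general knowledge were counted in the contrast, beside 0.827% called and a median contrast of 0.03 over all tested genes. Of all tested genes 13.3% had an unadjusted p under 0.05 in the contrast by edgeR. Of 29 glucocorticoid response genes 11 were called (37.9%), 10 of them lower, and the median was -0.60. Their median effect was 0.95 in somatic cells, where 16 rose and none fell, and 0.07 in germ cells, where 3 rose and 1 fell. The 10 lower were Zbtb16, Tsc22d3, Per1, Errfi1, Mt1, Cdkn1c, Angptl4, Cebpd and Hif3a, all somatic-restricted rises, and Gadd45b, a germ-restricted fall. Angptl4 lost its call without dex germ replicate 1 or saline germ replicate 2 (adjusted p up to 0.0546), and Cdkn1c kept it in 4 of the 12 fits, those without dex germ replicate 2, saline germ replicate 2, dex somatic replicate 1 or saline somatic replicate 2 (up to 0.0764 in the others). Fkbp5, a chaperone of the receptor that many tissues induce, was 175, 197 and 187 CPM in dex germ libraries against 159, 171 and 200 CPM in saline, and 323, 288 and 288 CPM against 258, 291 and 266 CPM in somatic libraries. Both pairs overlap, neither effect was called (0.08 and 0.14), and the contrast of -0.06 turned to 0.02 without saline germ replicate 3.

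No call was made for the receptor or its machinery. In the list of receptor, chaperone, cofactor and ligand-enzyme genes none of 26 was called by edgeR or limma voom and 1, Fkbp4, by DESeq2. In edgeR 3 had an unadjusted p under 0.05, beside 13.3% of all tested genes, and the median contrast was -0.01. Nr3c1 itself was 81, 92.9 and 91.9 CPM in dex germ libraries and 91.2, 97.7 and 97.1 CPM in saline, and 35.2, 33.5 and 28.5 CPM and 31.4, 46 and 32.7 CPM in somatic libraries. The receptor gene was thus 1.38 higher in germ than in somatic cells on the log2 scale in saline, and its contrast was 0.08 (SE 0.18, adjusted p = 0.949), with a sign that turned without dex somatic replicate 3 or saline somatic replicate 2 (-0.01 and -0.11).

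Of 18 clock genes 2 were called, Per1 lower and Nr1d2 higher, and 9 had an unadjusted p under 0.05, beside 13.3% of all tested genes. In somatic cells 3 of the list rose and 3 fell while none was called in germ cells. Collagen and matrix genes had 4 of 60 called, all lower (Col1a1, Sparc, Fbn2 and Timp1), with a median of -0.14. Col1a1, a chain of type I collagen, was 4941, 5932 and 5980 CPM in dex somatic libraries against 3243, 3796 and 2752 CPM in saline and 66.2 to 92.7 CPM in germ libraries (contrast -0.87, adjusted p = 0.0282), and it was lost without dex germ replicate 1, dex somatic replicate 2 or 3 or saline somatic replicate 3 (up to 0.0624). Stromal markers, with Col1a1 among them, summed to 11218 to 13416 CPM in dex somatic libraries and 7179 to 10237 CPM in saline. Without Col1a1 the other 7 overlapped, at 6280 to 7480 CPM with dex and 4430 to 6440 CPM with saline. The MAP kinase feedback list had 1 of 17 called (Errfi1), the inflammatory list 1 of 27 (Il1r2), and the prospermatogonia and stem cell list 1 of 26 (Zbtb16).

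Other lists had no called gene in the contrast. The median effect of 40 mitosis genes was -0.19 in germ cells, where 0 were called, and -0.29 in somatic cells, where 6 were called, all lower (Ccna2, Cenpa, Kif20a, Kif23, Prc1 and Top2a). In the contrast 0 were called by edgeR, DESeq2 or limma voom and 0 had an unadjusted p under 0.05 in edgeR (range -0.18 to 0.30). For 35 SR and hnRNP splicing factors the medians were -0.17, with 2 called lower, and -0.16, with 1 called lower. The contrast had 0 called by edgeR, DESeq2 or limma voom and 2 under 0.05 unadjusted (range -0.32 to 0.22). The 32 cholesterol and fatty acid synthesis genes had medians of 0.02 and 0.04, with 0 called by edgeR, 1 by DESeq2 (Mvd) and 0 by limma voom. In edgeR 7 were under 0.05 unadjusted, beside 13.3% of all tested genes. A missing call does not show that the effects were equal.

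**Figure D5:**
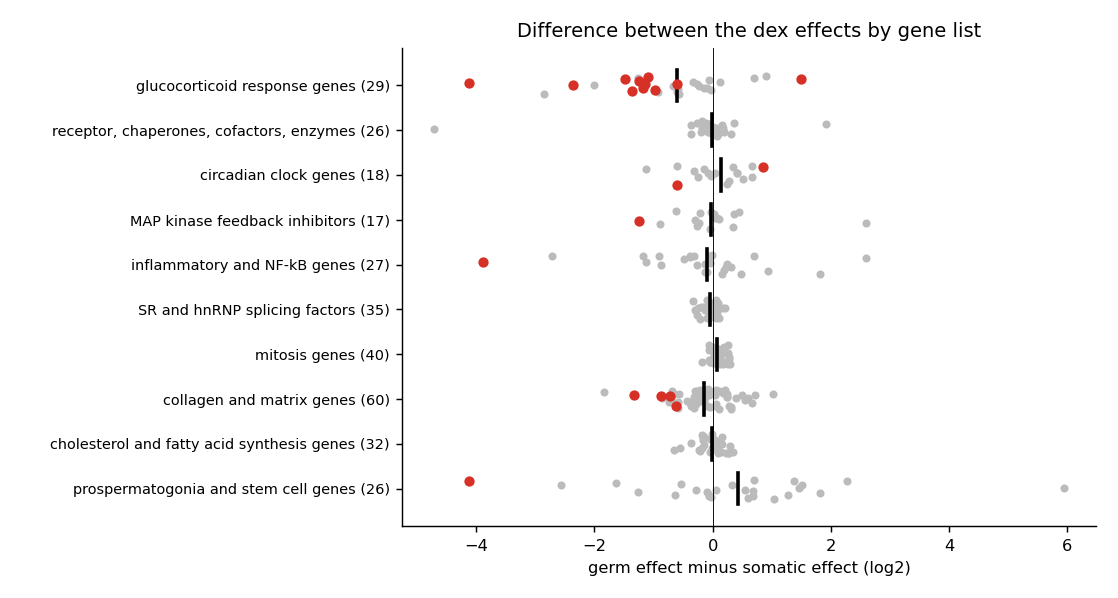
Contrast of each tested member of 10 gene lists, in log2 of the germ effect minus the somatic effect, with called genes in red, the others in grey, the list median as a black bar and the number tested in parentheses. Called glucocorticoid response genes lie left of 0 except Ddit4, and the mitosis and splicing factor lists stay close to 0.

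The 23 genes called in neither population on its own had opposite signs in all 23, with smaller shifts that add up in the contrast (median germ effect 0.27 and median somatic effect -0.21). The dex and saline libraries were without overlap for all 23 in germ cells and for 18 in somatic cells. Over all 20551 tested genes that held for 3895 in germ cells and 3787 in somatic cells. The 23 were chosen by a test on the same libraries, which favours such separation. None of the 23 was called in all 12 fits that left out a library.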

How the data were processed

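RNA of 12 libraries of PN1 mouse testis was read from 2 deposited tables, one of counts per gene and one of FPKM per gene. Per the labels, the authors selected polyadenylated RNA. The submitters' processing notes name HISAT2 2.0.5, featureCounts 1.5.0-p3, DESeq2 1.20.0 and mm10. The authors deposited raw counts, which were tested as they stood, and FPKM, which scale counts to length and depth and were used for levels between genes. The annotation release and the strand setting are not given in the sources used here, so reads of overlapping genes may be mixed. Further tables hold the authors' own fold changes and p-values and were not used.

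Counts were fitted with edgeR 4.0.16 (R 4.3.3), with TMM scaling, filterByExpr over 4 groups at a minimum count of 10, and quasi-likelihood F tests on 1 mean per group. The contrast and both dex effects came from this fit, with Benjamini-Hochberg adjustment over all tested genes and a threshold of 0.05. The SE is the log2 value divided by the square root of F. CPM are scaled by TMM. A group was at its floor where no library exceeded 3 counts. Alternatives used DESeq2 1.42.0 and limma 3.58.1. The contrast and its classes by edgeR, DESeq2 and limma voom were tested on simulated counts, and the other steps were not.

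Groups and replicate numbers came from the sample titles. Named genes were protein-coding genes of largest contrast whose mean log2 CPM was at least 2 and whose dex and saline libraries did not overlap, both in the population or populations called, up to 8 opposite, 5 in each restricted class and 4 of the same direction. Up to 3 called members of each list and Nr3c1, Tsc22d3, Klf9, Per1, Fkbp5 and Zbtb16 were added. Other genes were chosen after their values were seen. The members and lists were chosen with earlier results of these data known. Same-numbered germ and somatic libraries of a treatment had deviations correlated between -0.028 and 0.148, and those of other number between -0.099 and 0.0313. The same-numbered saline pairs were at 0.0846, 0.148 and 0.117, and the dex pairs at 0.00618, -0.0279 and -0.00559. The titles do not say that the numbers pair libraries, so the main fit took no pairs, and replicate blocks were alternatives. Marker sums were also taken without the most abundant marker of a list in that population, an alternative chosen after seeing the data.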

Additional observations from a re-analysis of the deposited data

Results flagged for a closer look

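Each gene listed here had a dex effect that differed between germ and somatic cells by the interaction test of edgeR over the 12 libraries (adjusted p at or under 0.05), which is what drew attention to it. The value after each name is the germ effect minus the somatic effect on the log2 scale. With a call in germ cells alone, genes that rose were Hhipl1 (2.20), Slc2a10 (2.12), Ddit4 (1.49), Nuak1 (1.21), Hr (1.15), Atoh8 (1.15), Enc1 (0.99), Mtr (0.94) and Adcy6 (0.77). With a call in germ cells alone, genes that fell were Sparc (-0.61), Efemp2 (-0.71), Fbn2 (-0.73), Nrbp2 (-1.07), Rasl11a (-1.08), Gadd45b (-1.14), Timp1 (-1.32), Gstm2 (-1.33), S100a11 (-1.72) and Fshr (-1.82, at its bound). With a call in somatic cells alone, genes that rose were Per1 (-0.60), Col1a1 (-0.875), Zfp36l1 (-0.95), Camk2n1 (-1.17), Hif3a (-1.18), Errfi1 (-1.24), H19 (-1.24), Tsc22d3 (-1.37), Mt1 (-1.48), Gpx3 (-1.55), Cryab (-1.59), Ncam1 (-1.60), Rasgrp2 (-1.61), Rassf4 (-1.92), Ppp1r3c (-1.92), Cebpd (-2.36), Tmem82 (-3.00), Il1r2 (-3.58, at its bound) and Zbtb16 (-4.11). With a call in somatic cells alone, genes that fell were Zap70 (1.95, at its bound), Bmper (1.92), Mrc1 (1.91), Fmnl1 (1.81), Coro1a (1.72), Afap1l1 (1.71), Slc4a8 (1.35), Ddx4 (1.28), B4galnt4 (1.13), Pecam1 (1.05), Lama3 (0.96), Nr1d2 (0.85) and Sema4d (0.80). The gene of opposite signs was Ralgapa1 (0.67). For Zap70, Fshr and Il1r2 one group lay at or under 3 counts in all of its libraries, and the value is then the difference against that floor. No explanation was tested.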

How the results depend on the processing

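The number of genes called in the contrast depended on the method, while the direction of the 170 genes did not: all kept their sign under every setting that tested them. Against 170 genes (85 higher, 85 lower), DESeq2 called 648 (366 and 282), no filter on low counts 706 (403 and 303), at least 10 counts in every library 262 (140 lower), limma voom 77 (34 and 43) and limma-trend on log2(FPKM + 0.1) 57 (24 and 33), and library totals gave 148 higher. Opposite genes numbered 23, 18, 6, 5 and 0 in the same order, 4 under library totals, and 2 with each population fitted on its own 6 libraries. Same-direction genes numbered 8, 17 and 3 under the first 3 of these, and 1 with 6 libraries. Germ-restricted genes numbered 170, 147, 71, 24 and 17, and somatic-restricted genes 354 with DESeq2, 416 with no filter, 47 with limma voom and 38 with limma-trend. Dex in germ cells was called for 636, 496, 257 and 326 genes under the first 4 and for 231 with 6 libraries, and dex in somatic cells for 1165 with DESeq2 and 1264 with no filter. The cause of these moves was not tested.

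Leaving out 1 library gave 79 to 172 genes called, 28 to 94 higher and 40 to 80 lower, 0 to 3 opposite, 0 to 1 of the same direction, 14 to 32 germ-restricted, 56 to 125 somatic-restricted, 54 to 173 for dex in germ cells and 307 to 538 in somatic cells. A replicate block within treatment gave 90 genes (38 higher, 52 lower), and a replicate block by number 104 (44 higher), with 0 opposite and 21 germ-restricted. Same-numbered germ and somatic libraries were weakly correlated in saline and not with dex, so whether the numbers pair libraries is not settled. If they do, a call lost under the block within treatment is a limit on that call. That block kept 82 of the 170 calls. Among the called members of the gene and marker lists it lost Per1, Cdkn1c, Gadd45b, Timp1, Mrc1, Pecam1, Ddx4 and Fshr. Signs turned for Fkbp5 without saline germ replicate 3 (0.0215), Klf9 without saline somatic replicate 1 (0.0255), and Nr3c1 without dex somatic replicate 3 (-0.00609) or saline somatic replicate 2 (-0.111), none of which was called, with ranges over the left-out libraries of -0.15 to 0.0215, -0.401 to 0.0255 and -0.111 to 0.157. Depth limits genes whose dex or saline libraries lie at or under 3 counts, for which only a bound is given.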
